A study of Mus musculus with 9 samples.

Results

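Described here are 10 genes of the mouse MHC class II pathway. H2-Aa, H2-Ab1, H2-Eb1 and H2-Eb2 encode chains of the peptide-presenting molecules, and H2-DMa, H2-DMb1 and H2-DMb2 encode the peptide editor DM. H2-Oa and H2-Ob encode its inhibitor DO, and Cd74 encodes the invariant chain. The 10 genes were taken by gene symbol, and all were found among the 15080 genes of the table. All passed the filter on low counts, which left 11636 genes for testing. RNA was measured in thymic epithelial cells (TEC) sorted from enzymatically dissociated thymi of young male wild-type mice. Of 9 libraries, 5 came from mice whose thymus was injected with 1 µg of rAREG (recombinant amphiregulin, an EGF family growth factor), and 4 from age-matched mice given the PBS vehicle, each collected 10 days after injection. The sources used here give neither the strain nor whether each library is its own mouse, so p-values measure only the spread between these libraries.

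Class II molecules are pairs of an alpha and a beta chain that carry peptides to the cell surface for CD4 T cells. In the endoplasmic reticulum the invariant chain binds new pairs and guides them to the endosomal pathway, where proteases trim it to the fragment CLIP and DM exchanges CLIP for other peptides, a step that DO restrains. In the thymus, TEC carry class II molecules at their surface without being leukocytes: cortical TEC use them for the positive selection of CD4 T cells, and medullary TEC use them to present self antigens. Transcription of the family depends on the transactivator CIITA, which acts on the RFX, CREB and NF-Y factors bound at the X and Y boxes of the promoters.

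The X and Y boxes are shown because CIITA acts through them. H2-Eb1 and H2-Eb2, neighbours of which only H2-Eb2 passed the test given below, have the same gap between the boxes. The distance from the Y box to the start was 54 bases in H2-Eb1 and 95 in H2-Eb2. RefSeq promoter windows (GRCm38.p6) were at hand for 8 of the 10 members, and the 250 bases before each start were searched on both strands. The letters GATTGG, the core of the Y box, stood in 8 of the 9 windows of these members, against 14.6% of 32851 promoter windows. The letters GNAAC, from the X box (N is any base), followed on the same strand by GATTGG after 20 to 35 bases, stood in 6 member windows and in 0.788% of all windows. These letters were chosen after the members' windows had been read, and such a match is a description of letters. Below, from the gene's own strand and 5′ to 3′, the capitals mark GNAAC and GATTGG, and in H2-DMb2 only GATTGG.
H2-Aa (chr17:34287863-34287908, minus strand): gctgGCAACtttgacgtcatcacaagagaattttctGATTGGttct
H2-Eb1 (chr17:34305772-34305816, plus strand): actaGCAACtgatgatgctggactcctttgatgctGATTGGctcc
H2-Eb2 (chr17:34325539-34325583, plus strand): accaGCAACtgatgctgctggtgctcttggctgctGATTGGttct
H2-DMb1 (chr17:34153093-34153138, plus strand): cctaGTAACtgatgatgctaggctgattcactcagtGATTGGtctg
H2-DMb2 (chr17:34145126-34145167, plus strand): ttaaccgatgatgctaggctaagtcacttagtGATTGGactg
H2-Oa (chr17:34092299-34092344, plus strand): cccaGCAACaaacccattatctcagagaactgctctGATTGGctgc
H2-Ob (chr17:34238814-34238856, plus strand): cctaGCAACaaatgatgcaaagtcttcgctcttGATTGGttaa
The gap between the marked letters was 27 bases in H2-Aa, H2-DMb1 and H2-Oa, 26 in H2-Eb1 and H2-Eb2, and 24 in H2-Ob. Of the 2 windows of H2-DMa, 1 held GATTGG and neither held the pair. The printed stretch of H2-DMb2 opens with ttaac, which differs from GNAAC in its first base alone.

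Class II transcripts were among the most abundant in these cells. Levels are given as CPM, UMI counts scaled for depth, here with TMM-scaled library sizes, and since MARS-seq counts each RNA molecule once at its 3′ end they are not divided by gene length. By mean CPM over the 9 libraries H2-Ab1 ranked 1, Cd74 2, H2-Aa 3 and H2-Eb1 8 among all genes in the table. Together the 10 members took up 3.52 ± 0.459% of the UMI counts in vehicle libraries (SD, n = 4) and 3.90 ± 0.330% in rAREG libraries (SD, n = 5), with ranges of 3.13% to 4.11% and 3.56% to 4.44% that overlap. The libraries held 1523246 to 2159115 UMI counts in all.

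In vehicle libraries the order of mean levels was H2-Ab1 (10059 ± 1405 CPM), Cd74 (10028 ± 1053), H2-Aa (8606 ± 1534), H2-Eb1 (5366 ± 1187), H2-Oa (481 ± 89.1), H2-DMa (424 ± 79.2), H2-DMb2 (397 ± 57.1), H2-DMb1 (334 ± 48.6), H2-Eb2 (146 ± 21.2) and H2-Ob (14.3 ± 2.54), each with SD and n = 4. H2-Ab1 and Cd74 did not differ beyond their spread, and Cd74 was the higher of the pair in 3 of 4 libraries. Cd74 and H2-Aa also had overlapping ranges, as did each neighbouring pair among H2-Oa, H2-DMa, H2-DMb2 and H2-DMb1. Gaps wider than the ranges lay between H2-Aa and H2-Eb1 (1.60-fold), between H2-Eb1 and H2-Oa (11.1-fold), between H2-DMb1 and H2-Eb2 (2.28-fold), and between H2-Eb2 and H2-Ob (10.2-fold). The alpha chain of DO was thus counted far more often than its beta chain, with 9907 UMI counts for H2-Oa and 277 for H2-Ob over all libraries. In rAREG libraries the same order held except that H2-DMb2 stood above H2-DMa.

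**Figure D1:**
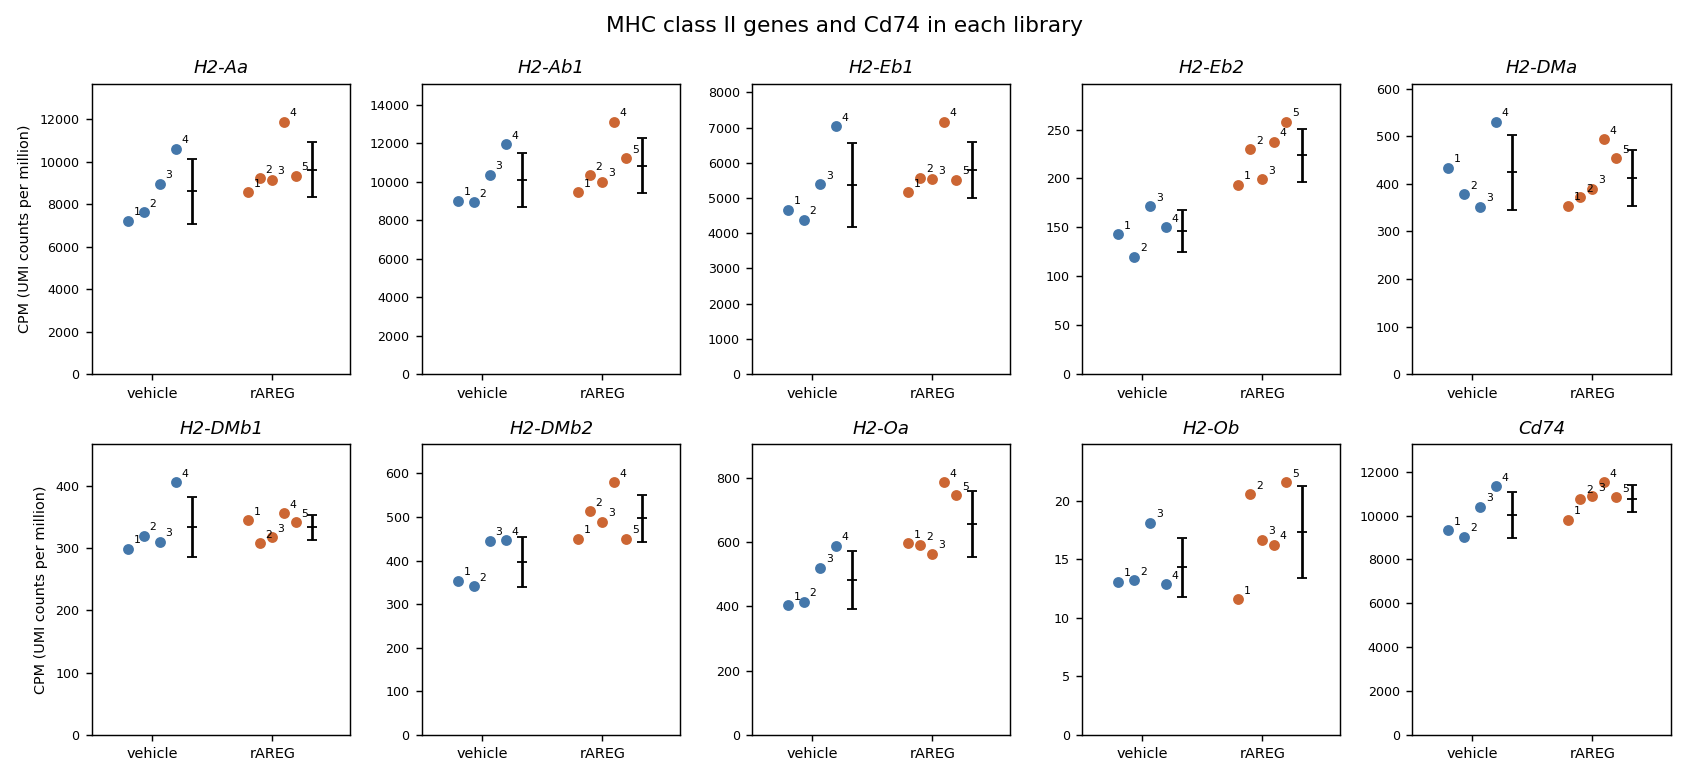
CPM of each class II member (vertical axis from 0) in each vehicle (blue) and rAREG (orange) library, with the replicate number beside each point and the mean ± SD as a bar at the right of each group. For H2-Eb2 all 5 rAREG points (194 to 258 CPM) lie above the 4 vehicle points (120 to 171 CPM), while for H2-Aa, H2-Ab1, H2-Eb1, H2-DMa, H2-DMb1, H2-Oa, H2-Ob and Cd74 the groups overlap.

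The study's comparison asks how TEC differ 10 days after rAREG. Of the 10 class II genes, 1 rose after rAREG, none fell and 9 did not pass (edgeR's quasi-likelihood test, Benjamini-Hochberg adjusted p under 0.05 over 11636 genes). The gene that rose was H2-Eb2, a beta chain gene beside H2-Eb1 that encodes a less studied relative of the E beta chain, at 1.53-fold. In bulk libraries, a change in the number of cells of a type and a change in RNA per cell cannot be told apart. H2-Oa at 1.36-fold and H2-DMb2 at 1.25-fold were next without passing, and the 4 abundant genes H2-Aa, H2-Ab1, H2-Eb1 and Cd74 were at 1.07-fold to 1.12-fold. Over all genes tested 0.559% were called higher in rAREG and 0.49% lower, or 1.05% in either direction. By an unadjusted p of 0.05, 3 of the 10 members passed, all higher in rAREG, against 13.3% of all genes tested in either direction and 6.82% higher. The groups' libraries did not overlap for 2 members, both higher in rAREG, against 4.92% of all genes in either direction and 2.48% higher. The median log2 fold change was 0.14 over the members and -0.0054 over all genes tested, and 8 of 10 members lay above 0, as did 49.2% of all genes.

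Among the classical chains, H2-Aa (chromosome 17, 34282744 to 34287823, GRCm38, minus strand), the only alpha chain gene among the presenting chains listed, stood at 7221, 7615, 8975 and 10613 CPM in vehicle replicates 1 to 4 and at 8569, 9221, 9148, 11895 and 9344 CPM in rAREG replicates 1 to 5. The highest library of each group was replicate 4, and the groups overlapped. Its log2 fold change was 0.16 ± 0.124 (SE), with a 95% interval of -0.096 to 0.42 (edgeR, adjusted p = 0.61). Its partner H2-Ab1 (chromosome 17, 34257689 to 34269419) stood at 9007, 8941, 10362 and 11923 CPM in vehicle and at 9457, 10332, 9983, 13116 and 11210 CPM in rAREG. It overlapped in the same way, with a log2 fold change of 0.11 ± 0.118 and a 95% interval of -0.14 to 0.35 (edgeR, adjusted p = 0.76).

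H2-Eb1 (chromosome 17, 34305867 to 34316674) encodes the beta chain of the second presenting molecule, I-E. It stood at 4663, 4386, 5385 and 7032 CPM in vehicle and at 5156, 5580, 5532, 7170 and 5518 CPM in rAREG. Replicate 4 was again the highest in each group, and vehicle replicate 4 lay above 4 of the 5 rAREG libraries. The log2 fold change was 0.11 ± 0.133, with a 95% interval of -0.17 to 0.39 (edgeR, adjusted p = 0.78).

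H2-Eb2 (chromosome 17, 34325665 to 34341412) was the member that passed, and like H2-DMb2 its groups did not overlap. It was at 143, 120, 171 and 150 CPM in vehicle replicates 1 to 4 and at 194, 230, 199, 238 and 258 CPM in rAREG replicates 1 to 5. These values rest on 218 to 490 UMI counts per library. All 5 rAREG libraries lay above all 4 vehicle libraries, and vehicle replicate 4, the highest vehicle library for H2-Eb1, was the second highest for H2-Eb2. Means were 146 ± 21.2 CPM in vehicle (SD, n = 4) and 224 ± 27.0 CPM in rAREG (SD, n = 5). In edgeR's fit this was 0.61 ± 0.118 (SE) in log2, with a 95% interval of 0.37 to 0.86 and an adjusted p of 0.018. In the authors' deposited table the gene was listed at a log2 fold change of 0.61 for AREG over PBS with an adjusted p of 0.0016. The call was lost without vehicle replicate 1 (adjusted p = 0.070), without vehicle replicate 2 (0.073) or without rAREG replicate 2 (0.056), at log2 fold changes of 0.60, 0.53 and 0.60. It was also lost with a score of dendritic cell, B cell and macrophage markers, described with those markers, as a covariate (0.41, adjusted p = 0.45). No exact word of 50 bases in the last 500 bases of its longest annotated transcript occurred in a transcript of another member.

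The invariant chain gene Cd74 (chromosome 18, 60803848 to 60812652) stood at 9321, 9043, 10412 and 11334 CPM in vehicle and at 9817, 10766, 10880, 11518 and 10845 CPM in rAREG. The groups overlapped and rAREG replicate 4 was the highest of all 9 libraries. Its log2 fold change was 0.10 ± 0.101, with a 95% interval of -0.11 to 0.31 (edgeR, adjusted p = 0.72). For these 4 abundant genes the upper ends of the intervals lay at 0.31 to 0.42, and each interval held 0. These ends lay below the estimate for H2-Eb2. The interval of H2-Eb2, 0.37 to 0.86, overlapped those of H2-Aa and H2-Eb1, though not those of H2-Ab1 and Cd74.

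Of the DM genes, H2-DMa (chromosome 17, 34119541 to 34139101), the alpha chain, stood at 434, 379, 352 and 531 CPM in vehicle and at 354, 372, 390, 493 and 454 CPM in rAREG. H2-DMb1 (chromosome 17, 34153072 to 34160230), a beta chain, stood at 299, 320, 310 and 405 CPM in vehicle and at 344, 308, 317, 356 and 341 CPM in rAREG. The groups of both genes overlapped, and vehicle replicate 4 was the highest library for each. Their log2 fold changes were -0.038 ± 0.127 (95% interval -0.30 to 0.23) and -0.00083 ± 0.106 (95% interval -0.22 to 0.22), with edgeR's adjusted p of 0.93 and 0.997. The sign of H2-DMb1 turned under the other scalings (0.0038 to 0.023), and that of H2-DMa without rAREG replicate 1 (0.014) or vehicle replicate 4 (0.093). H2-DMb2 (chromosome 17, 34143307 to 34151555), the other beta chain gene, stood at 354, 342, 445 and 448 CPM in vehicle and at 450, 514, 490, 580 and 450 CPM in rAREG. Its groups did not overlap, but rAREG replicates 1 and 5 lay just above vehicle replicates 3 and 4. The log2 fold change of 0.32 ± 0.114 had a 95% interval of 0.084 to 0.56 and did not pass (edgeR, adjusted p = 0.19). H2-DMb1 and H2-DMb2 are close copies: 20.4% of the 50-base words in the last 500 bases of H2-DMb1 occurred exactly in H2-DMb2 transcripts, so their split is uncertain where reads match both.

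Of the DO genes, H2-Oa (chromosome 17, 34092340 to 34095234), the alpha chain, stood at 403, 414, 520 and 589 CPM in vehicle and at 595, 589, 563, 786 and 746 CPM in rAREG. Vehicle replicate 4 lay above rAREG replicate 3 and next to rAREG replicates 1 and 2, and the other 3 vehicle libraries lay below all rAREG libraries. The log2 fold change of 0.45 ± 0.132 had a 95% interval of 0.17 to 0.72 and did not pass (edgeR, adjusted p = 0.11). Without vehicle replicate 4 it was 0.56 and passed (edgeR, adjusted p = 0.038). H2-Ob (chromosome 17, 34238903 to 34254414), the beta chain, stood at 13.1, 13.2, 18.1 and 12.9 CPM in vehicle and at 11.6, 20.6, 16.7, 16.3 and 21.6 CPM in rAREG, from 18 to 41 UMI counts per library. Its log2 fold change was 0.28 ± 0.215 with a 95% interval of -0.17 to 0.72 (edgeR, adjusted p = 0.62), so that at this depth neither no change nor the fold change of H2-Oa was outside its interval.

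Ratios between members within a library set the genes against each other without regard to library scaling. In log2, H2-Eb2 over H2-Eb1 was -5.02, -5.18, -4.96 and -5.54 in vehicle replicates 1 to 4 and -4.73, -4.59, -4.79, -4.91 and -4.41 in rAREG replicates 1 to 5. The ratio was higher in each rAREG library than in each vehicle library, by 0.49 ± 0.155 (SE) in mean. The two-sided exact permutation test over the 9 libraries gave p = 0.016, or 0.071 adjusted over the 9 ratios tested, so the difference did not pass. The smallest possible p of this test is 0.0079, and after adjustment a ratio alone at that p could not pass either. Not passing is therefore no sign of an unchanged ratio. H2-Oa over H2-DMa was -0.11, 0.13, 0.56 and 0.15 in vehicle and 0.75, 0.66, 0.53, 0.67 and 0.72 in rAREG. Vehicle replicate 3 alone reached the rAREG range, and the difference of 0.48 ± 0.145 likewise did not pass (exact permutation test, p = 0.016, adjusted p = 0.071).

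H2-DMb2 over H2-DMb1 averaged 0.25 ± 0.190 in vehicle (SD, n = 4) and 0.57 ± 0.167 in rAREG (SD, n = 5) on the log2 scale, and the groups overlapped (exact permutation test, p = 0.048, adjusted p = 0.14). The other 6 ratios differed by -0.21 to 0.040 and had adjusted p from 0.27 to 0.74 by the same test. The RNAs of H2-Eb1 and H2-Aa, which encode chains of different molecules, kept close proportions. H2-Eb1 over H2-Aa spanned -0.76 to -0.72 in rAREG and -0.80 to -0.59 in vehicle. None of the 9 ratios passed after adjustment, which no ratio alone could do even at the smallest p of this test. By the exact test 3 had an unadjusted p under 0.05.

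**Figure D2:**
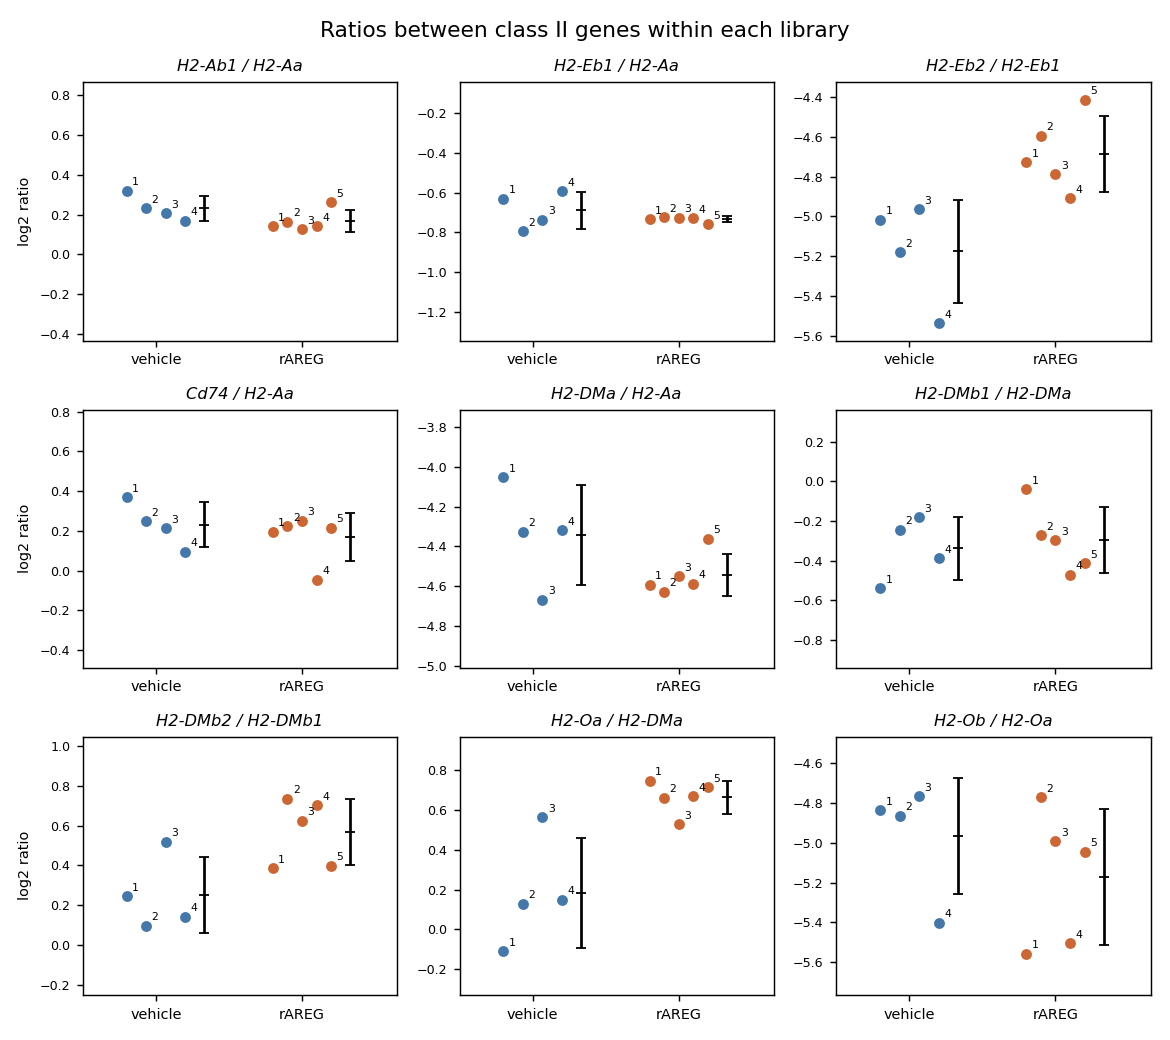
log2 ratio between 2 class II members (vertical axis, the same length in each panel) in each vehicle (blue) and rAREG (orange) library, with replicate numbers and the mean ± SD as a bar. H2-Eb2 over H2-Eb1 is higher in all 5 rAREG libraries, while H2-Eb1 over H2-Aa lies within -0.80 to -0.59 in all 9 libraries.

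The genes that act on class II molecules were described from lists drawn up with earlier results of these data known. Of 6 tested genes of class II transcription, none passed (edgeR; 1 had an unadjusted p under 0.05, Nfyc at -0.36 ± 0.158), and the median log2 fold change was 0.086. Ciita, the master transactivator, stood at 34.7, 31.4, 34.9 and 32.0 CPM in vehicle and at 32.3, 40.6, 42.2, 45.3 and 37.9 CPM in rAREG. In 4 of 5 rAREG libraries Ciita lay above all vehicle libraries, and its log2 fold change was 0.26 ± 0.140 (edgeR, adjusted p = 0.44). Creb1 was not analysed here, and Rfxap, at 4.58 ± 1.25 CPM in vehicle, was too low to test.

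None of the 10 genes of invariant chain and antigen processing passed either (edgeR; 2 had an unadjusted p under 0.05), with a median log2 fold change of 0.078. Ifi30, the lysosomal thiol reductase and the most abundant of them, stood at 544 ± 98.4 CPM in vehicle and 656 ± 101 in rAREG (0.27 ± 0.130, adjusted p = 0.38). The genes with an unadjusted p under 0.05, named after their values were seen, were those of cathepsins L and H. Ctsl, which in cortical TEC degrades the invariant chain, stood at 18.6, 22.0, 19.6 and 17.4 CPM in vehicle and at 11.0, 8.44, 14.4, 13.7 and 15.3 CPM in rAREG. All rAREG libraries lay below all vehicle libraries, at a log2 fold change of -0.62 ± 0.207 that did not pass (edgeR, adjusted p = 0.16). Ctss, whose product also degrades the invariant chain, was at 217 ± 31.2 and 243 ± 36.9 CPM (0.17 ± 0.121, edgeR, adjusted p = 0.58). Ctsh was at 0.30 ± 0.120 (edgeR, adjusted p = 0.26).

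Of 7 genes of the interferon gamma route, which induces Ciita in many cell types, 1 fell, none rose and 6 did not pass. Irf1, a transcription factor of this route, fell from 909 ± 99.5 to 568 ± 141 CPM, a log2 fold change of -0.68 ± 0.148 (edgeR, adjusted p = 0.037). Its groups overlapped, with rAREG replicate 5 at 796 CPM above vehicle replicate 3 at 763 CPM. Of the genes that set class II turnover at the surface, Cd83, which in TEC protects class II molecules from the ubiquitin ligase MARCH8, was at 43.2 ± 8.94 and 41.2 ± 10.3 CPM, and Marchf8 at 38.1 ± 4.82 and 34.2 ± 2.26 CPM; neither passed (adjusted p = 0.92 and 0.68). None of 10 genes of class I presentation passed (edgeR; 1 had an unadjusted p under 0.05), and their median log2 fold change was 0.080, with the most abundant, B2m, at -0.14 ± 0.136.

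Markers of TEC subsets and of other class II cells are given beside these results. Of 6 tested markers of the Aire-expressing stage of medullary TEC, which carries high class II, 3 rose and none fell. Aire, Fezf2 and Relb rose at log2 fold changes of 0.67, 0.49 and 0.44 (edgeR, adjusted p = 0.037, 0.042 and 0.043). Over all genes tested, 0.559% were called higher. Vehicle replicate 1 was the lowest vehicle library for each, with Aire at 497 CPM against 775 to 844 in the other vehicle libraries. Without it 18 of all genes tested passed, 5 of them higher in rAREG. How these 3 calls fared without it is not reported here. The summed level of the 7 listed genes was 1278 to 1873 CPM in vehicle and 2049 to 2764 CPM in rAREG, without overlap. Most of this sum came from Aire and Fezf2, whose own groups did not overlap, so it is not a result apart from theirs. The list was drawn up with earlier results of these data known, so the count of 3 and the sum are descriptions only. Of the 7 cortical and 8 general epithelial markers tested, none passed (edgeR, with 2 and 1 at an unadjusted p under 0.05), at median log2 fold changes of -0.13 and 0.059. The most abundant cortical marker, Tbata, was at 1617 ± 78.7 and 1806 ± 274 CPM. The 2 cortical genes with an unadjusted p under 0.05 went opposite ways, Cxcl12 at -0.60 ± 0.188 and Ccl25 at 0.31 ± 0.128. Psmb11, a further cortical marker, was at only 11.2 ± 3.68 and 9.45 ± 3.07 CPM. The epithelial keratin gene Krt18 was at 2356 to 2861 CPM. The part of the Aire-expressing stage in the level of H2-Eb2 was not tested.

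Leukocytes with class II could be carried along by a sort of TEC, and RNAs of their markers were measured. Their levels differed widely, as with Cd79b at 27.1 and Cst3 at 1538 CPM in vehicle. In bulk libraries these RNAs do not show which cells carried them. Of 8 tested macrophage markers none passed (edgeR, with 2 at an unadjusted p under 0.05). All 8 had log2 fold changes above 0, from 0.0097 to 0.85, and the median was 0.28. Mertk, a listed marker too low to test, went the other way, at 4.06 ± 2.11 and 1.83 ± 0.642 CPM. The summed level of the 9 macrophage genes was 489 to 579.6 CPM in vehicle and 580.2 to 758 CPM in rAREG, ranges that all but met. Most of it came from Lyz2 and from Vcam1, which was at 188 ± 32.1 and 193 ± 23.3 CPM. Lyz2, a lysozyme gene and the most abundant, stood at 260 ± 27.3 and 314 ± 51.1 CPM (edgeR, adjusted p = 0.32), and the complement gene C1qb, named after its values were seen, at 29.7 ± 15.6 and 53.5 ± 15.1 CPM (adjusted p = 0.31). Of 3 tested B cell markers none passed (edgeR; 1 had an unadjusted p under 0.05) and all 3 lay above 0, with Cd79b, a chain of the B cell receptor complex, at 27.1 ± 3.08 and 31.2 ± 2.22 CPM (adjusted p = 0.59); the summed level of the 5 measured was 33.2 to 43.4 CPM in vehicle and 41.7 to 55.5 CPM in rAREG.

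Of 6 tested dendritic cell markers none passed (edgeR; 1 had an unadjusted p under 0.05), 5 lay above 0, and the median log2 fold change was 0.073. The marker with the unadjusted p under 0.05, named for it, was Ccr7, a chemokine receptor of migrating dendritic cells that other cells also express, at 29.0 ± 7.96 and 45.0 ± 11.5 CPM (0.63 ± 0.202, adjusted p = 0.15). The summed level of the 8 measured was 1648 to 2114 CPM in vehicle and 1454 to 1968 CPM in rAREG, most of it from Cst3 (1538 ± 198 and 1431 ± 191 CPM), which other cells express too. None of the measured markers was at 0 in all libraries; Xcr1, Clec9a, Cd209a, Siglech, Cd79a, Ms4a1, Ighm, Igkc, Cd22 and Fcgr1 were not analysed here. None of 5 tested thymocyte markers and of 4 tested mesenchyme and endothelium markers passed (edgeR, with 0 and 1 at an unadjusted p under 0.05). The medians were 0.0041 and -0.19, with Lck at 23.5 ± 7.33 and 23.5 ± 2.46 CPM and Dcn at 472 ± 237 and 250 ± 79.8 CPM. Ptprc, a general leukocyte gene in the thymocyte list, was at 9.75 ± 3.36 and 7.02 ± 2.68 CPM (-0.48 ± 0.321, edgeR, adjusted p = 0.55). The mean log2 CPM of the 17 tested dendritic cell, B cell and macrophage markers was 4.78 ± 0.149 in vehicle (SD, n = 4) and 5.05 ± 0.167 in rAREG (SD, n = 5), with overlap. With this score as a covariate the log2 fold change of H2-Eb2 was 0.41 (edgeR, adjusted p = 0.45), that of H2-Oa 0.11 and that of H2-DMb2 0.20, and those of H2-Aa, H2-Ab1 and H2-Eb1 were -0.048, -0.11 and -0.13. In that fit 13 of all genes tested passed, against 122 without the score. Whether leukocyte RNA contributes to the level of H2-Eb2 was not tested.

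The class II genes other than Cd74 lie within 249 kb on chromosome 17, from 34092340 to 34341412 (GRCm38). Within this span and 100 kb on either side, 14 other protein coding genes were tested. None of them passed (edgeR; 0 had an unadjusted p under 0.05), 7 were above 0, and their median log2 fold change was -0.00090. Between H2-DMb1 and H2-Ob lie Psmb9, Tap1, Psmb8 and Tap2, which serve class I presentation, with log2 fold changes of -0.093, -0.059, 0.097 and 0.094. Btnl2, the next protein coding gene beyond H2-Eb2, was at -0.13 ± 0.247. H2-DMa overlaps Brd2 on the other strand, and the sources used here do not say whether the counting used strand; Brd2 was at -0.026 ± 0.120.

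**Figure D3:**
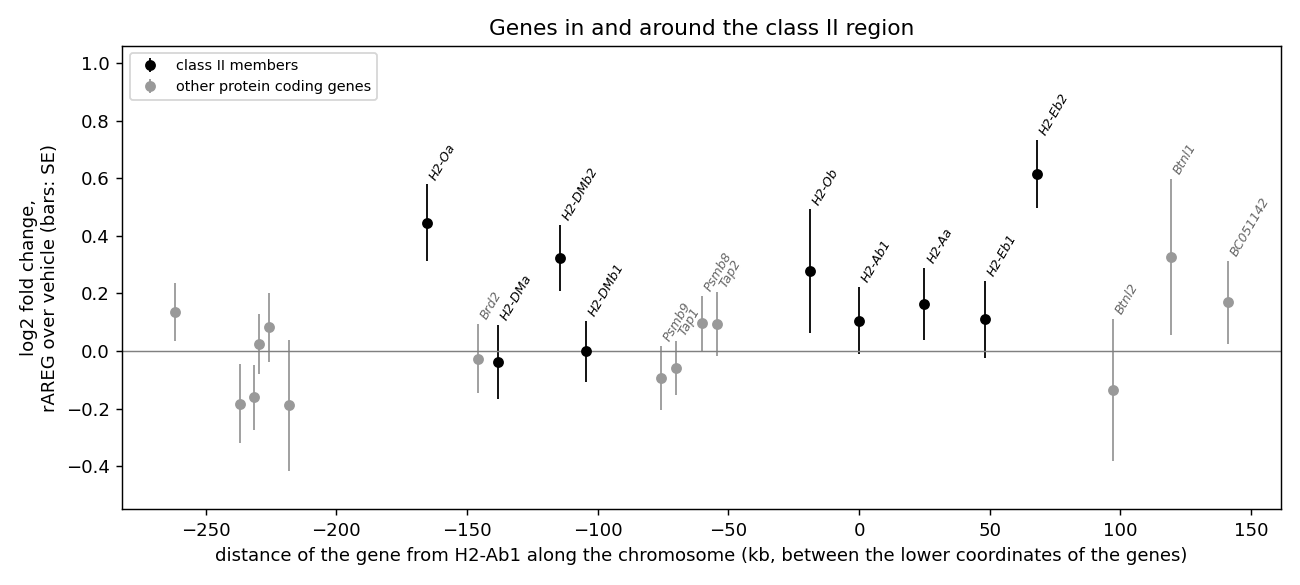
log2 fold change of rAREG over vehicle with its SE (vertical axis) against the distance in kb from H2-Ab1 (horizontal axis) for class II members (black) and the other protein coding genes tested (grey; the leftmost ones are not named). H2-Eb2 lies 68.0 kb from H2-Ab1 at 0.61, and its neighbours H2-Eb1 and Btnl2 are at 0.11 and -0.13.

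The members were also compared by how they followed the level of the abundant class II genes from library to library. As a measure of likeness, deviations of log2 CPM from the group means were correlated over the 9 libraries with those of the summed CPM of H2-Aa, H2-Ab1, H2-Eb1 and Cd74, and these values describe the same libraries, which share depth and scaling. Pearson's r was 0.90 for H2-Oa, 0.88 for H2-DMb2, 0.72 for H2-DMb1, 0.72 for H2-DMa, 0.58 for H2-Eb2 and 0.21 for H2-Ob, with Spearman's rho of 0.87, 0.88, 0.52, 0.50, 0.80 and 0.27. Without rAREG replicate 4 and vehicle replicate 4, whose deviations lay farthest from the median, r was 0.77, 0.79, -0.046, -0.013, 0.84 and 0.84 over 7 libraries, so the values of H2-DMb1 and H2-DMa, and the order of the members, rest on those libraries. The 5 other genes most like this sum, among 3553 with a mean of at least 50 CPM, were Rpl7a, Eif4a1, Psmg3, Sf3b5 and Mrps11, with r from 0.96 to 0.99 (0.83 to 0.94 without the same libraries), and 2.05% of the 3553 had an r above 0.9. These genes were picked for their r, which is therefore a description, and none of them passed between the groups (edgeR, adjusted p from 0.45 to 0.92).

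**Figure D4:**
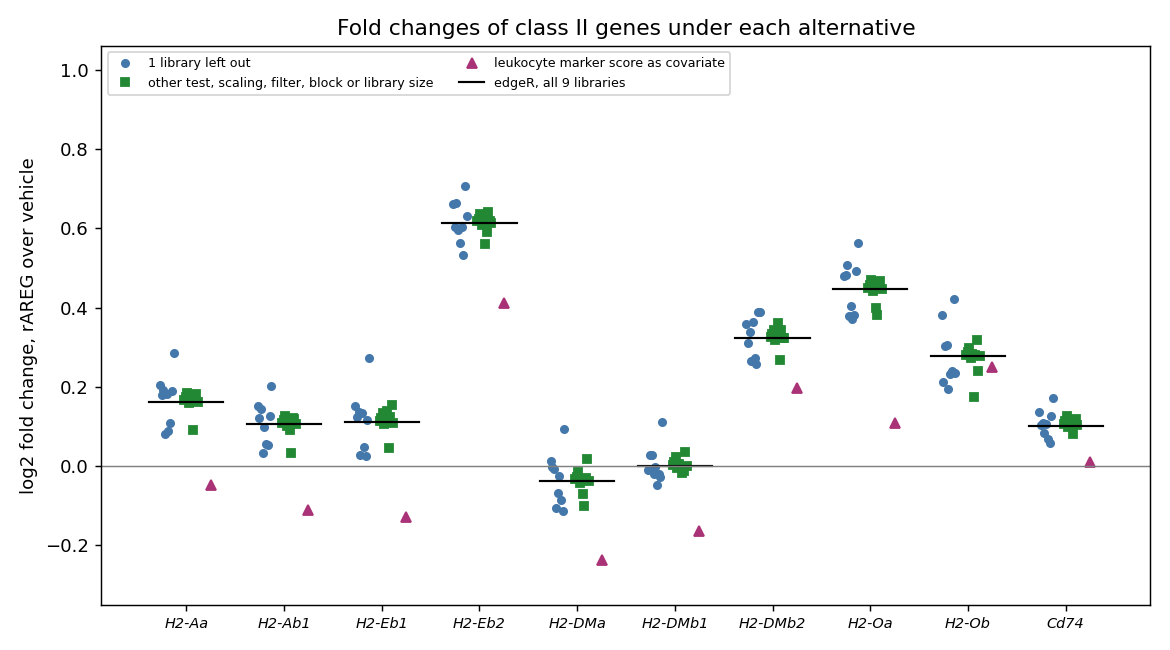
log2 fold change of each class II member (vertical axis) with all 9 libraries (black line), with 1 library left out (blue), under another test, scaling, filter, replicate block or library size term (green), and with the leukocyte marker score as a covariate (purple). H2-Eb2 lies between 0.41 and 0.71 throughout, and the lowest point of H2-Oa is 0.11 with the marker score.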

How the data were processed

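TEC were sorted and 3′-end MARS-seq libraries made, per the labels' protocols. Per the submitters' processing notes the tools were bcl2fastq, cutadapt and STAR 2.5.2b, besides HTSeq and DESeq2, with the build mm10; their roles are not stated. Raw UMI counts were taken from the table that the authors deposited. The authors' log2 fold changes (PBS over AREG) and p-values, also deposited, are quoted only for H2-Eb2, with the sign turned. Groups follow the sample titles. The members and lists were chosen with earlier results of these data known.

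The main test was edgeR 4.0.16 (R 4.3.3): the quasi-likelihood F test, robust, on TMM-scaled counts after filterByExpr, which removed 3444 genes, with Benjamini-Hochberg adjustment over 11636. The SE is the log2 fold change divided by the square root of F, and 95% intervals use the test's degrees of freedom. For ratios, log2 CPM had a prior count of 2. The genes named were all 10 members, from each list those that passed or else the most abundant, and the 5 most alike. Nfyc, Rfxap, Ctsl, Ctsh, Ctss, Marchf8, C1qb, Ccr7 and the neighbours on chromosome 17 were named after their values were seen. So were Mertk, Vcam1, Ptprc, Cxcl12, Ccl25 and Psmb11. No library repeated another: the lowest chi-square between a pair was 2.71 per degree of freedom. Positions are from GENCODE M21 (GRCm38, called mm10 in the notes) and promoters from RefSeq (GRCm38.p6). Alternatives used DESeq2 1.42.0, limma 3.58.1, other scalings and filters, blocks, covariates and each library left out. Some listed genes are not reported here by name.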

Additional observations from a re-analysis of the deposited data

Results flagged for a closer look

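Within a group, 7 values stood apart from the other libraries by Dixon's test at 95%. In all, 38 groups of 4 or 5 libraries were examined (10 members and 9 ratios in each treatment). In independent groups chance flags about 1 in 20. These groups are not independent, since ratios share members and members move together (r = 0.97 between H2-Aa and H2-Eb1). The 7 flags therefore cannot be set against that share. In rAREG replicate 4, H2-Aa was at 11895 CPM against 8569 to 9344 in the other rAREG libraries, and H2-Eb1 was at 7170 CPM against 5156 to 5580. In the same library the log2 ratio of Cd74 to H2-Aa was -0.0464, against 0.20 to 0.25 in the others. In rAREG replicate 5 the log2 ratio of H2-Ab1 to H2-Aa was 0.263 against 0.13 to 0.16, and that of H2-Eb1 to H2-Aa was -0.76 against -0.73 to -0.72. In vehicle replicate 3, H2-Ob was at 18.1 CPM against 12.9 to 13.2, a difference of 38 against 23 to 26 UMI counts. In vehicle replicate 4 the log2 ratio of H2-Ob to H2-Oa was -5.4, against -4.86 to -4.76. Without rAREG replicate 4 the log2 fold changes of H2-Aa and H2-Eb1 were 0.082 and 0.028, and they did not pass with or without it.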

How the results depend on the processing

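The number of members called, 1 with all libraries, was 2 with a replicate block by title number, 0 with the score of dendritic cell, B cell and macrophage markers as a covariate, 0 to 2 with 1 library left out, and 1 in the other 9 settings (RLE, upper-quartile or no factors, no filter, at least 10 counts in 4 libraries, a block by library number, library size as a covariate, limma voom and DESeq2). The call of H2-Eb2 was lost with the marker score (0.41, adjusted p = 0.45) and without vehicle replicate 1 or 2 or rAREG replicate 2; its log2 fold change was 0.53 to 0.71 over the fits with 1 library left out. H2-Oa passed with the block by title number (0.40, adjusted p = 0.034) and without vehicle replicate 4 (0.56). Signs that turned, all of values that did not pass, were with the marker score those of H2-Aa (-0.048), H2-Ab1 (-0.11) and H2-Eb1 (-0.13), with voom those of H2-DMa (0.019) and H2-DMb1 (0.036), and for H2-DMb1 also those with RLE (0.0038), upper-quartile (0.011) or no factors (0.023) and with the 10-count filter (0.0054). With 1 library left out H2-DMa spanned -0.11 to 0.093, H2-DMb1 -0.049 to 0.11, and the log2 ratio of H2-DMb1 to H2-DMa -0.027 to 0.092. No ratio passed under any of the prior counts tried, with raw counts plus 1 or with a library left out. In none of these could a ratio alone pass after adjustment over the 9 ratios, even at the smallest p. The exact test within the 4 pairs of title numbers could not pass at all, since its smallest p is 0.125. The cause of these changes was not tested.

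Over all genes tested, 122 passed with all libraries, 308 with the block by title number, 165 with that by library number, 197 with DESeq2, 13 with the marker score, and 18 (without vehicle replicate 1) to 230 (without vehicle replicate 4) with 1 library left out. Of these, 65, 135, 72, 100, 2, and 5 to 117 were higher in rAREG, and 41 with library size as a covariate. Nothing in the labels states that same-numbered libraries are pairs. Their deviations correlated at -0.025 to 0.17 by title number and at -0.036 to 0.080 by library number. With no reference value beside them, these correlations cannot decide whether the libraries are paired. Replicate 4 by title is library number 4 in rAREG and 6 in vehicle. At this depth H2-Ob, with 18 to 41 counts per library, is the member measured least precisely.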
